A study of Sus scrofa with 31 samples.

Results

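ADGRE1, ADGRE3 and EMR4 are adhesion G protein-coupled receptors with extracellular EGF-like domains, and they are 3 of the 31907 genes counted in this study of pig microglia. The members were chosen by name, and by their opposite patterns in these same libraries: ADGRE1 (ENSSSCG00000013556) and ADGRE3 (ENSSSCG00000013787) were high in alveolar macrophages and EMR4 (ENSSSCG00000040016) was higher in microglia. Their values in that comparison are therefore a description and carry no test. ADGRE1 encodes the F4/80 antigen, and the macrophages were sorted with an antibody to it, so its presence in the macrophage libraries was also selected on.

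RNA was sequenced from 31 samples of 15 male piglets of 24 to 26 days of age, 1 piglet per litter, from crossbred sows (Large White × Landrace) inseminated with pooled Danish Duroc semen and housed in standard or freer pens. The number of pigs is that of the tags in the labels, and it differs from the number in the methods of the study. No piglet carried a transgene or an experimental allele, and all had been sedated and anesthetized for imaging before tissue collection. Microglia, the resident macrophages of the brain, were sorted as CD11b high and CD45 low cells from the cerebellum (n = 8), the hippocampus (n = 8) and the frontal cortex (n = 8). The comparators were alveolar macrophages from lung lavage, sorted as F4/80 positive and CD163 low (n = 3), and unsorted hippocampal tissue (n = 4). Of the 15 pigs, 9 gave more than 1 sample, and 2 gave both macrophages and microglia. Total counts ranged from 18438494 to 43477403 per library, so that 3 counts, taken here as the floor of detection, stood for 0.0690 to 0.163 CPM (counts-per-million, a count scaled to the size of its library).

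The adhesion receptors are cleaved into a long extracellular part and a part that crosses the membrane 7 times, and the EGF-type group among them is found mainly on white blood cells. F4/80 is the classical marker of mouse macrophages, whereas in humans ADGRE1 is known mainly from eosinophils and ADGRE3 from granulocytes and monocytes. The EMR4 gene is a pseudogene in humans and encodes a receptor of myeloid cells in the mouse. ADGRE5 (CD97), the most widely expressed of the group, binds CD55 on other cells.

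The 3 genes lie on chromosome 2 of Sscrofa11.1, as annotated by RefSeq. EMR4 (bases 72155534 to 72206486, minus strand) and ADGRE1 (bases 72217036 to 72305925, minus strand) are direct neighbors, with 10549 bases and 0 annotated genes between them. ADGRE3 (bases 64623246 to 64682366, plus strand) lies 7473167 bases away from EMR4 and close to ADGRE5 (bases 64844793 to 64862231, minus strand). The 250 bases before each annotated gene start are shown because the neighbors EMR4 and ADGRE1 differed in pattern, EMR4 being read in all 31 libraries and ADGRE1 mainly in macrophages, whereas ADGRE3, far from ADGRE1, was read in macrophages alone. They are written 5′ to 3′ on the strand of each gene, from RefSeq (Sscrofa11.1), with capitals marking a match to the C/EBP motif.
EMR4 (chr2:72206487-72206736, minus strand): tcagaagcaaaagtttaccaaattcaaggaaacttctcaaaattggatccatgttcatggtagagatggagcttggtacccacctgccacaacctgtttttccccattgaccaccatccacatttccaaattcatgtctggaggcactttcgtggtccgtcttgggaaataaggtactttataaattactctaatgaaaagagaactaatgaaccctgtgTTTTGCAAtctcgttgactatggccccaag
ADGRE1 (chr2:72305926-72306175, minus strand): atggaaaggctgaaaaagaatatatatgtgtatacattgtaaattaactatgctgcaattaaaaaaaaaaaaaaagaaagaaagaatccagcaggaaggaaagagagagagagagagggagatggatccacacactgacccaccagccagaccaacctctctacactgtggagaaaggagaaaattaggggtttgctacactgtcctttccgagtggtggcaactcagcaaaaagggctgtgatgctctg
ADGRE3 (chr2:64622996-64623245, plus strand): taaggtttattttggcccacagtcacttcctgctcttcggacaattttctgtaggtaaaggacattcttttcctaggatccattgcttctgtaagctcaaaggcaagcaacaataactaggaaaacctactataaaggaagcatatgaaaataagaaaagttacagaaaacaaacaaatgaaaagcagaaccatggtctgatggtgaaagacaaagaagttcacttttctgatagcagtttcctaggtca
Motifs of 4 factor families known from macrophages were searched on both strands. The C/EBP motif TTNNGCAA was found 1 time, 30 to 23 bases before the EMR4 start, and 8.22% of 19545 promoters of this length held it. The PU.1 core GAGGAA (in 4293 of 19545 promoters), the AP-1 motif TGANTCA (5.26%) and the interferon regulatory factor motif (GAAA, any 2 bases, GAAA; 3.01%) were not in the 3 windows. These counts describe the letters of the windows only.

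The transcript models of the 3 genes differed in how uniquely a read of 50 bases, the length sequenced, could be placed. In ADGRE1, 2208 of 4284 windows of 50 exon bases (51.5%) occurred more than 1 time within the gene itself, and 0 occurred elsewhere in the genome. In EMR4, 138 of 5656 windows (2.44%) had an exact copy elsewhere, and in ADGRE3 0 of 2966 had. No window was shared among the 3 members or with ADGRE5, so no exact read of 50 bases within an exon belonged to a pair of them. The annotation holds 11 ADGRE-type loci on chromosome 2, of which 7, named E2-like or E3-like, matched no row of the counts and were not analyzed here. The counts of repeated ADGRE1 sequence may depend on how reads with several placements were treated, which is not given in the sources used here.

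ADGRE1 was read in every macrophage library and in no microglia library. In the alveolar macrophages of pigs 12821, 12829 and 12984, it had 2298, 2870 and 6683 counts, or 63.0, 75.3 and 142 CPM after TMM scaling. All 24 microglia libraries had 0 counts among 650664865 in all, which allows a level of up to 0.163 CPM in the shallowest library at the floor of 3 counts. The macrophage mean of 93.6 ± 42.8 CPM (SD, n = 3) was thus at least 845-fold higher than in microglia, taking the floor as 3 counts in each microglia library. The bound was 569-fold for the lowest macrophage library and 1286-fold for the highest. In hippocampal tissue, 3 libraries had 0 counts and that of pig 12829 had 2, or 0.0582 CPM. Over the pooled tissue counts the macrophage level was 7360 times that of tissue, with an exact Poisson interval (95%) from 2037 to 60770 times. Intervals and floors here cover counting error only.

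ADGRE3 followed the same pattern at a lower level. Its macrophage libraries had 789, 1752 and 3130 counts in pigs 12821, 12829 and 12984, or 21.6, 46.0 and 66.7 CPM. All 24 microglia libraries and all 4 tissue libraries had 0 counts. The macrophage mean of 44.8 ± 22.6 CPM (SD, n = 3) was at least 404-fold higher than in microglia and at least 496-fold higher than in tissue. ADGRE1 and ADGRE3 passed the filter on low counts, which asked for over 10 CPM in every sample of some group, only through the macrophage libraries.

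EMR4 was the member found in all 31 libraries. In cerebellar microglia it ranged from 81.1 to 132 CPM (median 102), in hippocampal microglia from 51.2 to 95.4 CPM (median 82.6) and in frontal cortex microglia from 34.1 to 58.9 CPM (median 41.7). The macrophages of pigs 12821, 12829 and 12984 had 442, 830 and 1591 counts, or 12.1, 21.8 and 33.9 CPM. Hippocampal tissue had 90, 84, 63 and 53 counts in pigs 12821, 12829, 12847 and 12872, or 2.76, 2.44, 1.94 and 1.59 CPM. Every microglia library lay above every macrophage library, although the lowest frontal cortex library (34.1 CPM) and the highest macrophage library (33.9 CPM) nearly met. Every macrophage library lay above every tissue library.

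**Figure D1:**
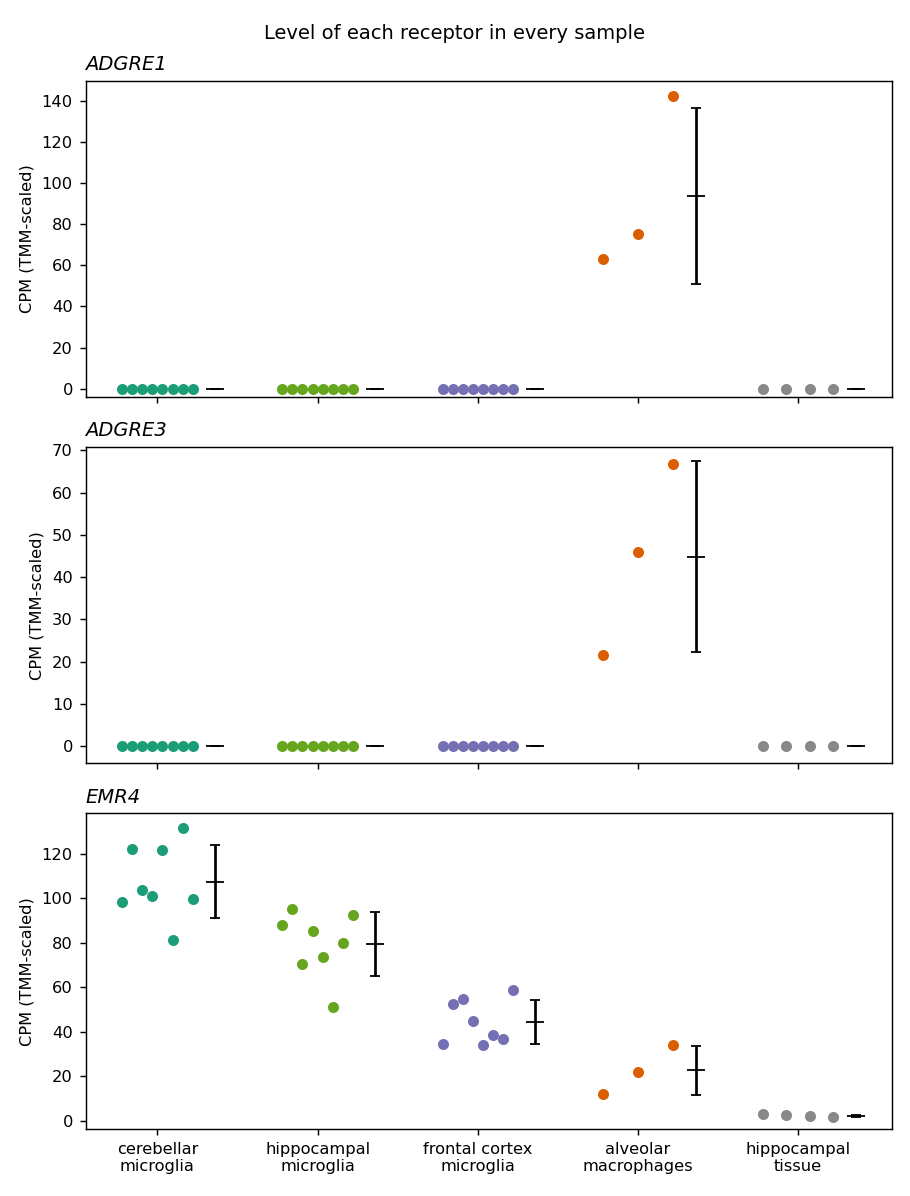
Level of ADGRE1, ADGRE3 and EMR4 in every sample, in CPM on a linear axis, by group; points are libraries and the bar beside them is the mean with its SD. ADGRE1 and ADGRE3 stand above 20 CPM in the 3 macrophage libraries only, whereas EMR4 falls from cerebellar microglia (mean 108 CPM) through hippocampal (79.6), frontal cortex (44.3) and macrophage (22.6) to tissue libraries (2.18).

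The fitted fold of EMR4 between the mean of the 3 microglia regions and macrophages was 3.20 (log2 fold change 1.68, SE 0.24), just above the fold of 3 that the comparison of microglia with macrophages required. The macrophage library of pig 12821 decided this: without it the fold was 2.62, and without that of pig 12984 it was 4.30. With the alternative filters on low counts it was 2.95 and 2.93. In pig 12821, EMR4 stood at 122 CPM in cerebellar and 73.7 CPM in hippocampal microglia against 12.1 CPM in macrophages, and in pig 12829 at 51.2 CPM in hippocampal microglia against 21.8 CPM in macrophages. Over all 11633 genes tested, 12.2% were called higher in microglia and 10.1% lower (adjusted p under 0.01 and fold over 3), and the median log2 fold change was 0.06. Because the members were selected on this contrast, nothing is read from their place among these genes.

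Levels of different genes were compared per kilobase of exon. On that scale ADGRE1 stood at 14.6 ± 6.70 (SD, n = 3) and ADGRE3 at 11.8 ± 5.96 CPM per kilobase in macrophages, while EMR4 stood at 3.46 ± 1.67. In microglia EMR4 stood at 11.8 ± 4.53 (SD, n = 24), near the ADGRE3 level in macrophages. With coding length in place of exon length these 4 levels became 15.97, 23.4, 11.12 and 37.9 CPM per kilobase, in the same order. The coding part takes up 1914 of 3788 exon bases in ADGRE3 and 2033 of 6530 in EMR4, but 5859 of 6391 in ADGRE1. The order of ADGRE1 and ADGRE3 therefore depended on the length used, and in each macrophage library ADGRE1 was 0.971 to 1.73 times ADGRE3 by exon length.

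ADGRE5 had the highest level of the 4 EGF-type receptors with a row of counts in macrophages; the 7 other loci were not analyzed here. It reached 464 ± 99.3 CPM (SD, n = 3) in macrophages against 33.9 ± 10.4 CPM (SD, n = 24) over all microglia and 6.53 ± 2.38 CPM (SD, n = 4) in tissue. Its macrophage libraries had 371, 569 and 453 CPM in pigs 12821, 12829 and 12984, an order that differed from that of the 3 members. Among the 4 receptors, by level per exon length, ADGRE5 made up 81.3 ± 6.86% of the sum in macrophages and EMR4 2.14 ± 0.81%. In microglia the sum was EMR4 and ADGRE5 alone, with EMR4 at 59.9 ± 8.42% in the cerebellum, 62.9 ± 9.51% in the hippocampus and 41.4 ± 6.51% in the frontal cortex (SD, n = 8 each). With coding length the EMR4 share was 77.5%, 79.5% and 62.1% in these regions and 4.81% in macrophages, so that in the frontal cortex the larger share turned from ADGRE5 (58.6% by exon length, 37.9% by coding length) to EMR4. The end of the ADGRE5 gene overlaps DDX39A on the other strand by 204 bases, and the strand setting of the counting is not given in the sources used here.

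**Figure D2:**
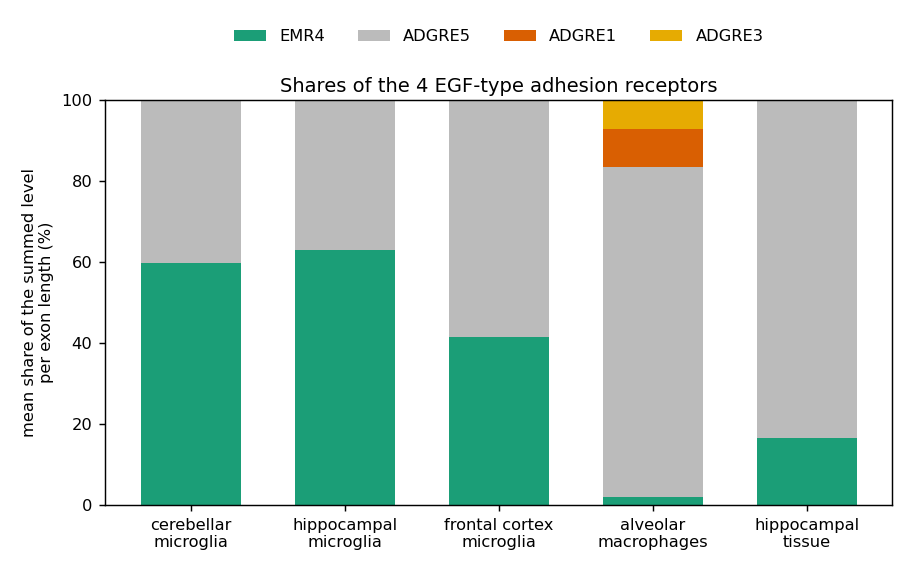
Mean share of EMR4, ADGRE5, ADGRE1 and ADGRE3 in their summed level per exon length, in percent, for the 5 groups of samples. Microglia hold EMR4 and ADGRE5 only, with EMR4 at 41.4% to 62.9%, while macrophages hold all 4 with ADGRE5 at 81.3%; by coding length EMR4 is at 62.1% to 79.5% in microglia and leads in the frontal cortex too.

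Within the brain, EMR4 separated isolated microglia from the tissue they came from. In hippocampal microglia EMR4 was 36.4-fold higher than in hippocampal tissue (log2 fold change 5.19, SE 0.27, edgeR adjusted p = 4.91e-16), and the ranges did not overlap. Of all genes tested, 11.7% were called higher and 22.1% lower in hippocampal microglia (adjusted p under 0.01 and fold over 4). The exact two-sided permutation test of the 8 and 4 libraries gave a difference of 5.15 on the log2 scale (p = 0.0040, the smallest it allows, adjusted p = 0.0040 over the 4 permutation tests of EMR4). In the 4 pigs with both samples EMR4 was higher in microglia in 4 of 4, by 26.1-, 20.4-, 39.8- and 55.9-fold in pigs 12821, 12829, 12847 and 12872. The exact sign-flip permutation test over these pigs gave p = 0.125, the smallest it allows. The study drew its list of microglia genes from these samples and EMR4 is on it. The hippocampal microglia also enter the comparison that chose the members, so this direction and its p-values are not independent evidence.

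The difference of EMR4 between sorted cells and tissue lay within the range of the microglia markers. The 8 markers (TMEM119, P2RY12, CX3CR1, TREM2, GPR34, SALL1, OLFML3 and CSF1R) were all higher in hippocampal microglia than in tissue, with log2 fold changes from 2.19 to 5.53 and a median of 5.01. Their summed level ranged from 4453 to 6418 CPM in hippocampal microglia and from 225 to 330 CPM in tissue. EMR4 was 0.80 to 1.95% of that sum in hippocampal microglia and 0.62 to 0.94% in tissue, so that these ranges met. In bulk tissue, fewer cells of a type and less RNA per cell cannot be told apart.

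Across the regions, the means of EMR4 formed a gradient from cerebellum over hippocampus to frontal cortex, though not every step of it was called. The means were 108 ± 16.5, 79.6 ± 14.4 and 44.3 ± 9.87 CPM (SD, n = 8 each). The F test over the 3 regions called EMR4 (edgeR adjusted p = 7.80e-05), as it did 2.03% of the genes tested (adjusted p under 0.01). The study also lists EMR4 among the genes it chose on these samples, so the regional test is likewise not independent evidence.

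EMR4 was 2.43-fold higher in cerebellar than in frontal cortex microglia (log2 fold change 1.28, SE 0.17, edgeR adjusted p = 2.22e-05), a comparison in which 1.87% of genes were called. The lowest cerebellar library (81.1 CPM) lay above the highest frontal cortex library (58.9 CPM). The exact permutation test gave p = 0.00016, the smallest it allows (adjusted p = 0.00062). In the 6 pigs with both regions the cerebellar sample was higher in 6 of 6, by 1.70- to 3.60-fold, and the exact sign-flip permutation test gave p = 0.031, the smallest it allows (adjusted p = 0.125).

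Hippocampal microglia stood between the other regions. EMR4 was 1.80-fold higher there than in frontal cortex microglia (log2 fold change 0.84, SE 0.17, edgeR adjusted p = 0.0085), where 0.318% of genes were called, and the ranges overlapped through the hippocampal library of pig 12829 (51.2 CPM). This call was the least stable: it was lost in 13 of 16 edgeR fits that left out 1 library, with adjusted p up to 0.033, and with pig as a block in edgeR the adjusted p was 0.185 at a log2 fold change of 1.08. The exact permutation test gave p = 0.00062 (adjusted p = 0.0012). In the 3 pigs with both regions the hippocampal sample was 1.96-, 2.79- and 2.06-fold higher (exact sign-flip permutation p = 0.25, the smallest it allows).

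Cerebellar and hippocampal microglia differed less. EMR4 was 1.35-fold higher in the cerebellum (log2 fold change 0.43, SE 0.17), which was not called across all genes (edgeR adjusted p = 0.137), where 0.602% of genes were called. Over the alternative fits this adjusted p ranged from 0.0699 to 0.592. The exact permutation test of EMR4 alone gave p = 0.0025 (adjusted p = 0.0033). In the 4 pigs with both regions the cerebellar sample was higher in 4 of 4, by 1.18-, 1.06-, 1.65- and 1.02-fold in pigs 12750, 12758, 12821 and 12847 (exact sign-flip permutation p = 0.125, the smallest it allows).

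**Figure D3:**
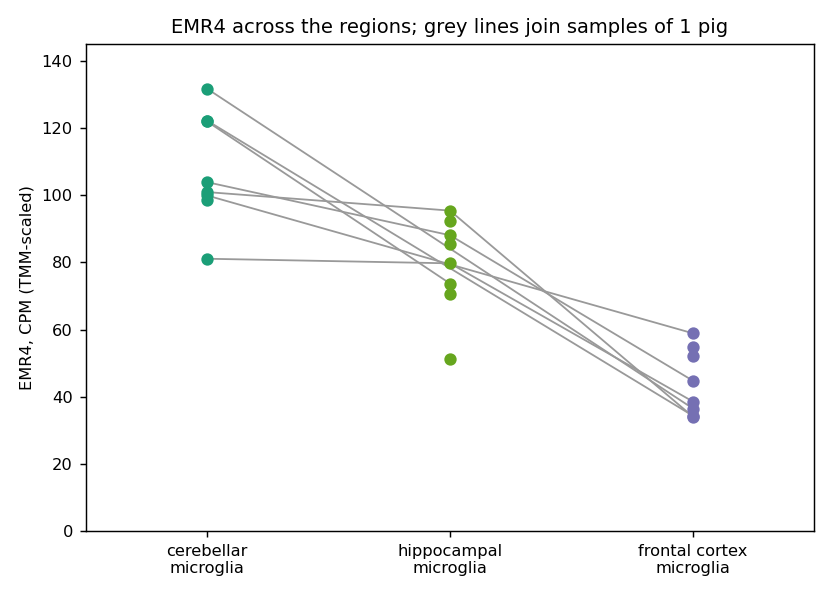
EMR4 in microglia of the 3 regions, in CPM on an axis from 0; points are libraries and grey lines join the samples of 1 pig, across the middle region where that pig has no hippocampal sample. All 6 pigs with cerebellar and frontal cortex samples fall from left to right, and the hippocampal point of pig 12829 (51.2 CPM) lies within the frontal cortex range.

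The microglia markers were not called along this gradient. By the F test of edgeR 0 of the 8 were called between regions, and 2 had an unadjusted p under 0.05. This test called 2.03% of all genes, so 0 of 8 is near the share over all genes. With limma-voom and DESeq2 0 were called too. P2RY12 had the lowest adjusted p (0.0917, edgeR), and the 8 log2 fold changes between cerebellum and frontal cortex ran from -0.73 to 0.34. The summed level of the 8 markers overlapped between regions (3912 to 7974 CPM in cerebellar, 4453 to 6418 in hippocampal and 5069 to 7522 in frontal cortex microglia). EMR4 was 2.02 ± 0.36%, 1.44 ± 0.34% and 0.74 ± 0.15% of that sum (SD, n = 8 each). Transcripts of other brain cells varied among the microglia libraries, and the neuron markers (RBFOX3, SNAP25 and SYT1) summed to 7.67 to 122 CPM in cerebellar, 0.763 to 29.9 in hippocampal and 5.46 to 111 in frontal cortex microglia. The frontal cortex libraries with the highest neuron sums were those of pigs 12599 (111 CPM) and 12891 (59.9 CPM), with EMR4 at 34.4 and 36.6 CPM, and the library of pig 12847 with the lowest sum (5.46 CPM) had EMR4 at 38.6 CPM. In the cerebellum the highest neuron sum was that of pig 12902 (122 CPM) and the lowest that of pig 12758 (7.67 CPM), with EMR4 at 99.9 and 101 CPM. Leaving out 1 library at a time, the log2 fold change between cerebellum and frontal cortex ran from 1.21 to 1.33. The F test also called RBFOX3 of 3 neuron markers (edgeR adjusted p = 0.0058) and CD3D of 4 T cell markers (0.0013), and none of the astrocyte, B cell, granulocyte, monocyte and macrophage markers tested. In cerebellar, hippocampal and frontal cortex microglia RBFOX3 had means of 11.9, 0.57 and 5.05 CPM. CD3D had means of 1.01, 0.03 and 2.24 CPM in that order of regions. The part of these other cells in the EMR4 difference was not tested.

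The 3 members kept 1 order among the macrophage libraries: each was lowest in pig 12821, intermediate in pig 12829 and highest in pig 12984. ADGRE1 varied 2.26-fold, ADGRE3 3.09-fold and EMR4 2.80-fold between the lowest and the highest library. The summed granulocyte markers had the same order (272, 434 and 654 CPM), as had the blood monocyte markers CCR2, CD14 and FCN1 (207, 384 and 416 CPM), but this held for the sums and not for each marker. CD14 stood at 47.7, 131 and 91.4 CPM and the granulocyte marker CSF3R at 99.3, 249 and 186 CPM in pigs 12821, 12829 and 12984, each highest in pig 12829. The summed T cell markers did not keep the order of the members (786, 1083 and 529 CPM), nor did the B cell markers (430, 315 and 293 CPM). The summed alveolar and border macrophage markers did not keep it either (614, 578 and 1017 CPM). Of that list MRC1 kept the order (213, 230 and 341 CPM), whereas CD163, PPARG and SIGLEC1 were lowest in pig 12829. CD163 and PPARG were highest in pig 12984, as the members were. With 3 libraries an order is easily shared by chance. In the 24 microglia libraries the T cell sum reached at most 71.6 CPM and the B cell sum at most 165 CPM. The part of other lavage cells in the levels of ADGRE1, ADGRE3, EMR4 and ADGRE5 was not tested.

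The label of the macrophages was checked against 6 markers. CD163, MRC1, SIGLEC1 and PPARG were detected in all 3 macrophage libraries, and the 6 markers summed to 578 to 1017 CPM there against 8.64 to 64.2 CPM in microglia. MARCO and FABP4, both typical of alveolar macrophages, had 0 counts in all 3. MARCO had 0 counts in all 31 libraries, so its row checks nothing here. CD163 stood at 335, 296 and 573 CPM in pigs 12821, 12829 and 12984, in cells sorted for low CD163 protein.

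**Figure D4:**
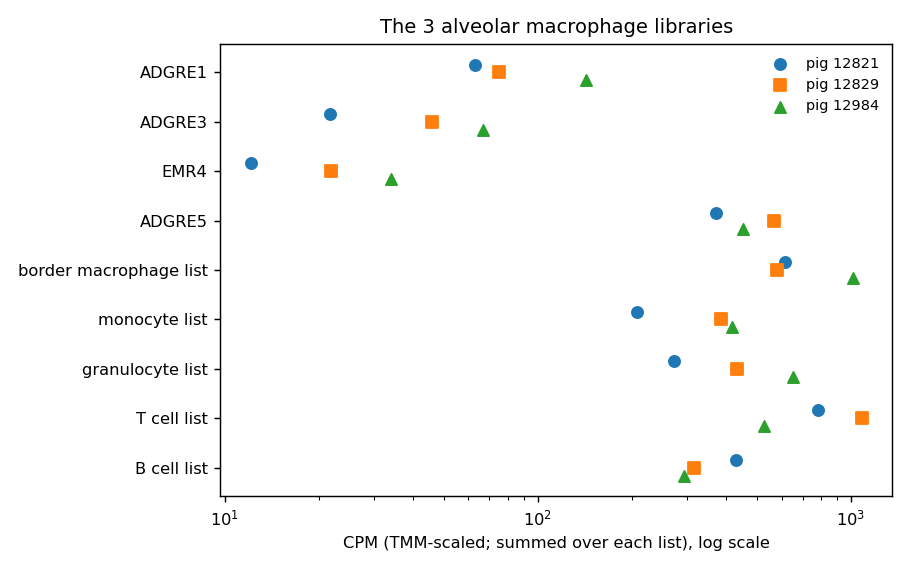
The 3 alveolar macrophage libraries, by pig: CPM of ADGRE1, ADGRE3, EMR4 and ADGRE5 and the summed CPM of 5 marker lists, on a log axis. The 3 members are lowest in pig 12821 and highest in pig 12984, as are the summed monocyte and granulocyte lists. ADGRE5 and the T cell sum are highest in pig 12829, where the border macrophage list is lowest.

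Other genes of the macrophages also had exactly 0 counts in all microglia. Of 6022 genes above 20 CPM in every macrophage library, 5 had 0 counts in all 24 microglia libraries: ADGRE1, ADGRE3, CD79B (of the B cell receptor), IL1R2 (a decoy receptor of interleukin 1) and SLC11A1 (a metal ion transporter of phagosomes). This set was chosen after its values were seen, and ADGRE1 and ADGRE3 were selected for this pattern. Nothing is therefore read from their place in it. Its size depends on the cut of 20 CPM. CD28 and TNIP3, with means of 0 in microglia and of 24.9 and 20.4 CPM in macrophages, fell outside it. Genes used by every cell, such as ACTB, GAPDH and B2M, were read in every library, with at least 1618 counts in microglia.

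The genes whose log2 CPM followed the members most closely were found by Pearson's r over the 31 samples, among 10130 tested genes with a symbol. For ADGRE1 these were SLC11A1, TNIP3, CD28, IL1R2 and THEMIS, with r from 0.990 to 0.999. CD28 and THEMIS are known from T cells. The same 5 genes led for ADGRE3, with r from 0.987 to 0.999. Such values rest on 3 libraries with reads against 28 at or near 0, and the samples share library preparation and pigs. By Spearman's rho, 4 of the 5 stayed in the first 5 for ADGRE1 and 2 for ADGRE3.

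For EMR4 the most alike gene was C3, the central complement component (r = 0.979, rho = 0.962, first by each measure). C3 had means of 4711, 3386 and 2305 CPM in cerebellar, hippocampal and frontal cortex microglia, 541 CPM in macrophages and 100.3 CPM in tissue, the same order of groups as EMR4. The C3 gene lies 224983 bases from EMR4 on chromosome 2, beyond ADGRE1 and VAV1. VAV1, a signaling protein of blood cells and the next gene after ADGRE1, had a mean of 170 CPM in microglia (SD 24.9, n = 24) against 193 CPM in macrophages (SD 32.2, n = 3), and was not called. The next most alike genes were LOC100514951, SCIN, SMAD7 and LPAR5, with r from 0.965 to 0.973, and of the first 5 only C3 stayed in the first 5 by Spearman's rho. Within the 24 microglia libraries, after each region's mean was taken out, the leading genes were MPEG1, CXCL16, LPXN, ECM1 and PIGU, with r from 0.648 to 0.696. C3 was not among them, and with 10130 genes searched such values are a description only.

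The wider adhesion receptor family holds 33 names, of which 30 matched a row and 19 were tested. Without the 3 members, 6 of 16 were called higher in microglia than in macrophages and 2 lower, with a median log2 fold change of 2.58, against a median of 0.06 and calls for 12.2% and 10.1% over all genes. ADGRG1 (GPR56), a receptor known from microglia and neural progenitors, had the highest mean CPM of the family in microglia, at 465 ± 78.3 CPM (SD, n = 24) against 11.5 ± 2.29 CPM (SD, n = 3), a 40.6-fold difference (edgeR adjusted p = 1.07e-17). CELSR3, ADGRA3, ADGRL2, ADGRL1 and CELSR2 were also called higher in microglia, with log2 fold changes of 5.93, 5.62, 2.89, 2.79 and 2.36. In hippocampal tissue CELSR2 (282 CPM), ADGRL1 (191) and CELSR3 (54.2) stood above their microglia means (26.3, 35.1 and 17.3 CPM). ADGRA3 (40.0) and ADGRL2 (40.6) stood below theirs (52.8 and 92.8 CPM). The neuron markers SYT1, SNAP25 and RBFOX3 were likewise higher in microglia than in macrophages (log2 fold changes 4.17, 6.14 and 5.84). The part of other brain cells in these calls was not tested. ADGRE5 was 13.9-fold lower in microglia (log2 fold change -3.80, SE 0.17, edgeR adjusted p = 3.05e-17). Of the 4 EGF-type receptors with a row, EMR4 was the 1 that was higher in microglia, the pattern it was chosen for.

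**Figure D5:**
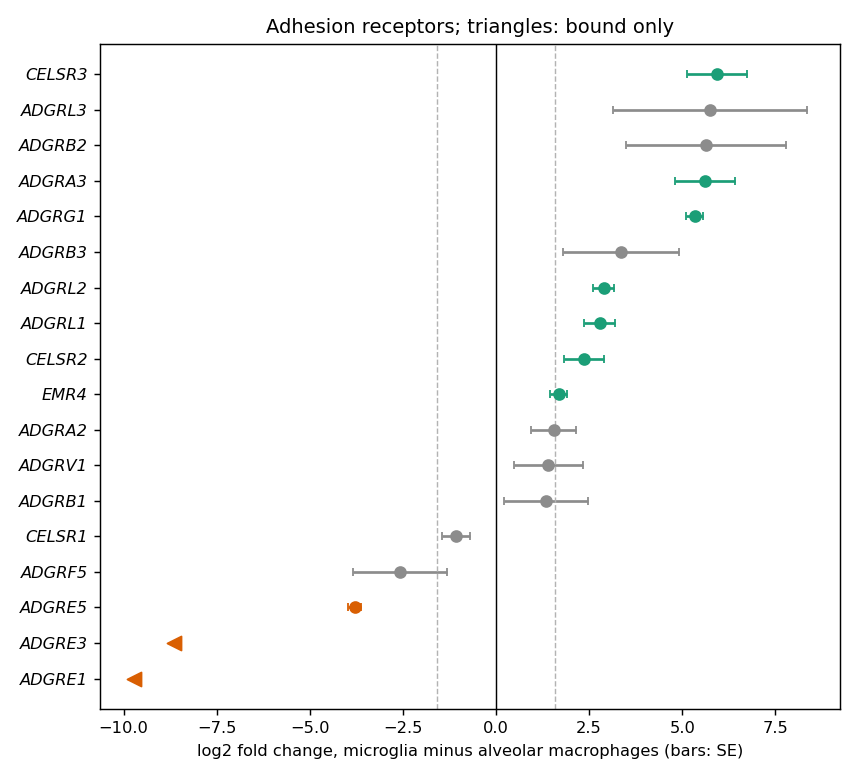
Log2 fold change of the tested adhesion receptors that are reported here, microglia minus alveolar macrophages, with SE bars; green is called higher, orange called lower and grey not called, and dashed lines mark a fold of 3. ADGRE1 and ADGRE3 are drawn as triangles at their bounds, at least 9.72 and 8.66 lower on the log2 scale, EMR4 sits just past the dashed line at 1.68, and ADGRE5 lies at -3.80.

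Against tissue the family went the other way. In hippocampal microglia 2 of these 16 receptors were called higher than in tissue (among them ADGRG1, 5.03-fold) and 11 lower, with a median log2 fold change of -3.49, against -0.08 over all genes tested, of which 11.7% were called higher and 22.1% lower. The lower ones included the receptors of the brain's neurons and glia ADGRB1, ADGRB2, ADGRB3, ADGRL1 and ADGRL3 and the atypical cadherins CELSR1, CELSR2 and CELSR3. ADGRE5 was 3.99-fold higher in hippocampal microglia than in tissue, just under the fold of 4 that the comparison required (edgeR adjusted p = 5.27e-08). EMR4 stood at 36.4-fold, but the hippocampal microglia also enter the comparison that chose it, so nothing is read from its place in the family. Between regions EMR4 was the only one of 19 called by the F test of edgeR, which called 2.03% of all genes tested. ADGRE5 had an adjusted p of 0.060 and ADGRG1 of 0.917 (edgeR). Of the 19, 9 had an unadjusted p under 0.05 in edgeR. ADGRE1 and ADGRE3, with 0 counts in all microglia, could not be called. With DESeq2, 2 of the 19 were called.

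Against hippocampal tissue, EMR4 in macrophages had a fitted fold of 10.3 (log2 fold change 3.37, SE 0.27), in a comparison that called 11.5% of genes higher and 18.1% lower (adjusted p under 0.01 and fold over 4). The macrophages enter this comparison and the one that chose the members, so the values of all 3 members here are a description, with no test. The comparisons share their macrophage, tissue or hippocampal microglia libraries.

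Known ligands and partners of the family were listed alongside: CD55, THY1, COL3A1, TGM2, CD81, CD9, the teneurins TENM1 to TENM4 and the FLRT1 to FLRT3 proteins. Of 12 tested, 1 was called higher and 3 lower in microglia than in macrophages, beside 12.2% and 10.1% of all genes. CD55, the ligand of ADGRE5, was lower in microglia (0.45 ± 0.61 CPM, SD, n = 24, against 49.2 ± 4.32 CPM, SD, n = 3; log2 fold change -7.52, SE 0.75), as were CD9 (log2 fold change -4.70) and THY1 (-3.13). CD81, a tetraspanin that binds ADGRG1, was higher in microglia at 1164 ± 270 CPM against 236 ± 54.7 CPM, 4.93-fold. In hippocampal microglia against tissue 1 was called higher (CD81) and 11 lower, beside 11.7% and 22.1% of all genes. Between regions 0 of 12 were called by the F test of edgeR (7 had an unadjusted p under 0.05), 0 by limma-voom and 3 by DESeq2. The edgeR test called 2.03% of all genes between regions, so 0 of 12 is near that share, and DESeq2 called more genes.

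Of 9 G proteins and effectors through which such receptors can signal, 3 were called higher in microglia than in macrophages and 1 lower, beside the same 12.2% and 10.1% of all genes. ARHGEF12 (8.41-fold), GNAQ (3.64-fold) and GNA12 (3.60-fold) were higher in microglia, whereas ARHGEF1, an exchange factor for small GTPases known from blood cells, was 3.84-fold lower, at 93.7 ± 39.2 CPM against 356 ± 88.3 CPM. GNA15, a G protein alpha subunit of blood cells, stood at 75.0 ± 15.4 CPM in microglia and 62.9 ± 9.38 CPM in macrophages and was not called between them. Between regions 0 of the 9 were called by the F test of edgeR (3 had an unadjusted p under 0.05), 0 by limma-voom and 1 by DESeq2. The edgeR test called 2.03% of all genes, so 0 of 9 is near that share, and DESeq2 called more genes.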

How the data were processed

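Per the study, BBtools (38.67) was used for trimming, HISAT2 for alignment to the pig build Sscrofa11.1 with Ensembl release 99, and StringTie for counts per gene. The table deposited by the authors holds raw gene counts of 31 samples, from Takara SMARTer stranded total RNA libraries read as pairs of 50 bases. Groups and pig tags came from the labels, which give 15 pigs.

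Counts were scaled by TMM, kept where every sample of some group passed 10 CPM (11633 genes) and fitted in 1 model of 5 groups with the quasi-likelihood F test of edgeR (4.0.16), with Benjamini-Hochberg adjustment over all tested genes. SEs were taken from the F statistic. Calls used adjusted p under 0.01, with fold over 3 against macrophages and over 4 against tissue. The study used limma-voom, which is an alternative here (limma 3.58.1), as is DESeq2 (1.42.0). EMR4 was also tested by exact permutation of log2 CPM (prior count 2) and by sign-flip permutation within pigs, adjusted over 4 tests. Samples with 1 tag come from the same pig. Their deviations from the group means had a mean correlation of 0.0791 (25 pairs), against -0.00499 for different pigs (347 pairs). Samples of 1 pig in different groups are therefore not independent, and pig as a block is an alternative.

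Gene symbols came from the study's supplementary tables (3689 rows) and otherwise from reference tables (11778 rows). Positions, lengths and promoters are RefSeq annotation release 106 on the same build. The members and all lists were chosen with earlier results of these data known. The text names the 3 members, family genes that were called or had a mean over 10 CPM in a group (some of these by count only), the 5 genes most like each member, and partners called against macrophages. The statistics were tested on simulated data. Alternatives tried were scaling, filters, tests, samples in the fit, pig as a block, the threshold, leaving out each sample, the floor, the prior count, the likeness measure and the length. Some genes and a marker list are not reported here, although 1 family gene of these still enters the counts over the family.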

Additional observations from a re-analysis of the deposited data

Results flagged for a closer look

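Of 9 groups of 4 or 8 libraries tested for ADGRE1, ADGRE3, EMR4 and ADGRE5, 1 held a library far from the others; chance alone marks about 1 in 20 such groups. It is the hippocampal tissue library of pig 12829, with ADGRE1 at 0.0582 CPM (2 counts) while the other 3 tissue libraries had 0 counts. This is below the floor of 3 counts. With the other tissue libraries at 0, any count would have been marked, so the 1 in 20 does not apply.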

How the results depend on the processing

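Over 36 results, 612 values were recomputed: 524 stayed on their side of the threshold or within their spread, 22 lost a call, 66 moved and 0 reversed. The EMR4 fold of microglia over macrophages was judged by its spread alone. Its values under the threshold of 3 are therefore not among the 22: 2.62 without the macrophages of pig 12821, 2.95 with filterByExpr and 2.93 with no filter. The count of genes called between microglia and macrophages (2597) was 4660 with filterByExpr and 5058 with no filter, and that between hippocampal microglia and tissue (3930) was 7084 and 7867, as more genes were tested. Between cerebellum and frontal cortex the count (217) was 128 with no filter, 511 with DESeq2, 381 with pig as a random block in limma and 586 at adjusted p under 0.05, and 141 to 225 leaving out 1 sample. Between cerebellum and hippocampus the count (70) was 452 with DESeq2, 45 with limma-voom, 32 in a fit of the groups compared alone and 424 at adjusted p under 0.05, and 35 to 113 leaving out 1 sample. The edgeR fit that had the pig as a replicate block called 0, with 1329 genes at an unadjusted p under 0.05. Between hippocampus and frontal cortex the count (37) was 17 with no filter, 391 with DESeq2, 15 in a fit of the groups compared alone, 1 with the pig block in edgeR and 281 at adjusted p under 0.05, and 15 to 107 leaving out 1 sample. Over the regions the F test of edgeR called 236, and DESeq2, by a likelihood ratio test, called 790. The count was 120 in a fit of the groups compared alone, 85 with the pig block and 927 at adjusted p under 0.05. It was 154 to 335 leaving out 1 sample. Adhesion receptors called over the regions (1) were 2 with DESeq2 and 2 at adjusted p under 0.05. Except where fewer samples or more genes entered a fit by construction, the cause was not tested.

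The EMR4 difference between hippocampus and frontal cortex (log2 fold change 0.84) lost its call with RLE size factors (0.81, adjusted p = 0.0110 in edgeR), no factors (0.75, 0.0416), filterByExpr (0.82, 0.0177), no filter (0.82, 0.0208) and the pig block (1.08, 0.185), and ranged from 0.71 to 0.92 leaving out 1 sample. The other EMR4 calls by the edgeR fits were kept under the block. The within-pig differences (the pairing by pig) were 1.38, 0.27, 1.17 and 5.04 on the log2 scale for cerebellum against frontal cortex, cerebellum against hippocampus, hippocampus against frontal cortex and hippocampal microglia against tissue, and the exact sign-flip permutation tests gave adjusted p of 0.125, 0.167, 0.25 and 0.167, designs with too few pigs to pass 0.01. With a floor of 1 count the lower bounds of ADGRE1 and ADGRE3 became 2534- and 1212-fold. With 3 macrophage samples and 0 counts in microglia, depth limits ADGRE1 and ADGRE3 to bounds.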
